A study of Mus musculus with 45 samples.

Results

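The strain difference in liver on the high-fat diet was measured as the log2 expression of each gene in B6 mice minus that in 129S6 mice, both fed the high-fat diet. The arrays were chosen by their labels alone: 4 liver arrays of C57Bl/6 (B6) mice on the high-fat diet and 4 of 129S6/SvEvTac (129S6) mice on that diet, which makes 8 of the 16 liver arrays and 8 of the 45 arrays of the study. The other liver arrays came from low-fat mice, 4 per strain, and the study also measured skeletal muscle and epididymal fat of the same groups. The mice were 6 months old and carried no labelled mutation or transgene. Total RNA (25 µg) of 2 to 3 mice was pooled before biotin labelling for an array, so the replicate is a pool of mice and p-values measure how pools of a group vary. Pools average over mice, and the labels do not say whether any 2 pools shared a mouse. A single diet composition is described (fat 21%, protein 22% and carbohydrate 57% of calories), without saying which of the diets it was.

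B6 and 129 are inbred strains that are often compared because B6 mice gain weight and become insulin resistant on fat-rich food more readily than many 129 substrains. The liver takes up fatty acids, makes them from carbohydrate, esterifies them to triglyceride and either secretes the triglyceride in lipoproteins or keeps it in lipid droplets. The droplets are coated by perilipins and by the CIDE proteins Cidea and Cidec, which enlarge droplets by moving lipid from small to large ones and are known to be abundant in fatty liver. The comparison asks how the livers of the strains differ when both eat the high-fat diet.

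Values are log2 units as deposited, and a difference of 1 is a change of 2-fold. Differences are B6 minus 129S6 ± SE from limma, fitted over the 16 liver arrays and adjusted by Benjamini-Hochberg over 8251 genes. A gene "passed" where the adjusted p was under 0.05, and "with run" names the fit that also holds the run of arrays described below. The 8 arrays are named by the replicate numbers of the labels, 13 to 16 for B6 and 7 to 10 for 129S6.

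Hepatocyte markers were high on every array, with a list mean (14 genes) of 11.07 to 11.32 in B6 and 11.30 to 11.63 in 129S6. The 3′ minus 5′ signal of the Gapdh control, which grows as RNA degrades, was 0.296 ± 0.0521 (SD, n = 4) in B6 and 0.159 ± 0.0961 (SD, n = 4) in 129S6 (exact two-sided permutation p = 0.0571, adjusted p = 0.2286 over 4 quality measures). B6 replicate 13 stood apart: its mean over 34 macrophage and leukocyte markers was 7.66, against 6.65 to 6.72 on the other B6 arrays and 6.46 to 6.74 on the 129S6 arrays, and its mean over 22 skeletal muscle markers was 6.74, against 6.14 to 6.34 on the other 7 arrays. B6 replicates 16 and 13 had the highest means over 6 pancreas markers, 8.83 and 7.97, against 6.95 to 7.57 on the other arrays. By the numbers in the array names, all 4 B6 high-fat arrays lay in another run of arrays than all 4 129S6 high-fat arrays, so strain and run cannot be told apart within the high-fat diet, and no run gives a value of its own. The 129S6 low-fat arrays lay in both runs, 2 in each, and a fit with run as a covariate rests on them. One of these, replicate 11, had a Gapdh 3′ minus 5′ signal of 3.26, against 0.13 to 0.41 on the other 3, so that fit was also made without it. No label says whether the arrays of a run were processed together.

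Lipid droplet proteins and fatty acid synthesis enzymes that passed were higher in B6, steroid enzymes that passed were lower, and drug-metabolising enzymes went both ways. Of 8251 genes, 426 passed (5.16%): 250 were higher in B6 (3.03%) and 176 lower (2.13%). Arrays of the strains did not overlap for 415 of the 426, and for 17.8% of all genes. The median size of the passing differences was 0.62, and 75 exceeded 2-fold, 49 of them higher in B6. With the run as covariate 167 genes passed (2.02%), 46 higher (0.558%) and 121 lower (1.47%). Of the 426, 403 kept their sign in that fit (94.6%) and 85 passed in it, 39 higher and 46 lower; the median SE was 0.176 there and 0.111 without the run. Without 129S6 low-fat replicate 11 the fit with run kept 63 of the 426, and 51 genes, 25 higher and 26 lower, passed in all 3 fits. Leaving out 1 of the 8 arrays at a time, 186 of the 426 passed every time. Without B6 replicate 13, 271 genes passed, of which 256 were among the 426.

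**Figure D1:**
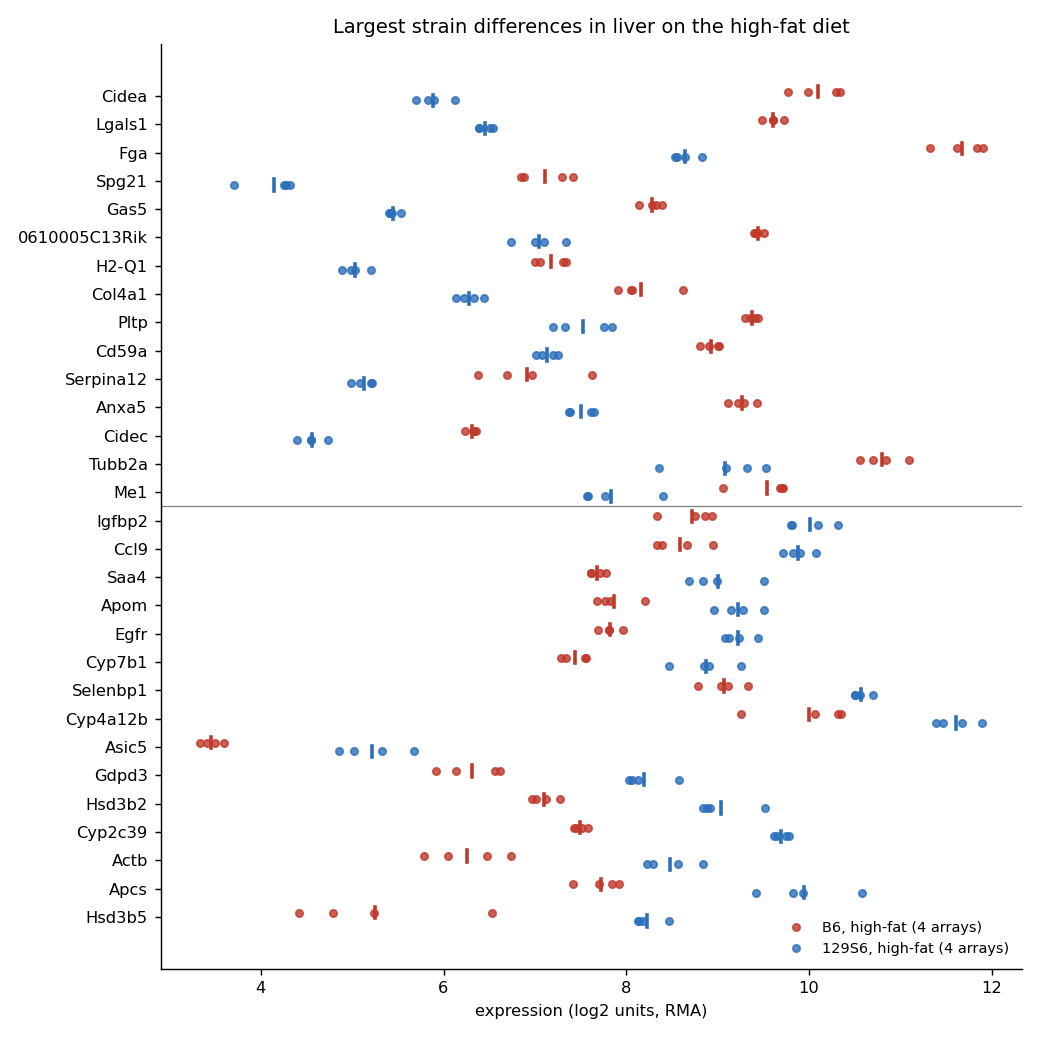
Expression in log2 units on the x axis of the 15 genes with the largest differences each way among those that passed without overlap, for the 4 B6 (red) and 4 129S6 (blue) liver arrays on the high-fat diet. Points are arrays, short vertical bars are group means, and the grey line parts genes higher in B6 from genes lower in B6. Cidea has the widest gap, with means of 10.10 and 5.89.

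Cidea had the largest difference of all genes. It measured 9.77, 9.99, 10.34 and 10.30 in B6 replicates 13 to 16 and 6.13, 5.90, 5.70 and 5.83 in 129S6 replicates 7 to 10. Every B6 array lay far above every 129S6 array, and the spread within a strain was small beside the gap. The difference was 4.21 ± 0.21 (n = 4 and 4, adjusted p = 5.44e-10), an 18.5-fold higher level in B6, and it was 4.37 with the run as covariate (adjusted p = 2e-06).

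The other droplet proteins that passed were also higher in B6. Cidec, the close relative of Cidea that is typical of large adipocyte droplets, measured 6.32, 6.23, 6.35 and 6.33 in B6 and 4.73, 4.55, 4.55 and 4.40 in 129S6, a difference of 1.75 ± 0.14 (adjusted p = 4.06e-07). The B6 arrays lay close together and none reached down to the 129S6 range. Plin4, a perilipin of nascent droplets, measured 6.80, 7.00, 6.67 and 6.60 in B6 and 5.74, 5.61, 5.69 and 5.58 in 129S6, a difference of 1.11 ± 0.10 (adjusted p = 2.19e-06). Plin2, the main perilipin of hepatocyte droplets, measured 11.90, 11.77, 12.04 and 12.24 in B6 and 11.29, 11.36, 11.75 and 11.10 in 129S6. Its groups nearly touched, since the highest 129S6 array was 11.75 and the lowest B6 array 11.77, and its difference was 0.61 ± 0.13 (adjusted p = 0.0127). Of the 11 measured droplet genes these 4 passed (36.4%, against 5.16% of all genes), none was lower, and the list's median difference was 0.32 against -0.02 over all genes. The gene lists here and below were chosen with earlier results of these data known. A list's share above that of all genes may therefore follow in part from the choice. With the run as covariate Cidea, Cidec and Plin4 passed, and Plin2 had 0.79 with an adjusted p of 0.075. Of the 8 adipocyte markers none passed in limma (1 had an unadjusted p under 0.05, and none passed with run), their median difference was -0.02, and their list mean was 6.71 to 7.02 in B6 and 6.83 to 6.99 in 129S6.

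Upstream sequence is shown for droplet and fatty acid synthesis genes that were higher together in B6, so that the promoters can be set beside each other. RefSeq (GRCm38.p6) gave the 150 bases before the gene start, written 5′ to 3′ on the gene's strand. Of the 9 droplet and synthesis genes that passed, 4 are shown and 5 are not. The 5 are Cidea, Plin2, Plin4, Fasn and Scd1, for which no window was used, so the letters searched below were not read for them. Capitals mark the letters GGGCGG on either strand, the core of sites bound by Sp1-type factors.

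Cidec, chr6:113435761-113435910, minus strand: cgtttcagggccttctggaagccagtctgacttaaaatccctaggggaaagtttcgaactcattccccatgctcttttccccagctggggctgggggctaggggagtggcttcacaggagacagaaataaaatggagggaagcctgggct
Acly, chr11:100528001-100528150, minus strand: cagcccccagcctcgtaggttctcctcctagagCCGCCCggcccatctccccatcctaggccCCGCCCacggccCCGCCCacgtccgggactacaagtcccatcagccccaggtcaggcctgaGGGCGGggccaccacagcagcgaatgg
Me1, chr9:86695915-86696064, minus strand: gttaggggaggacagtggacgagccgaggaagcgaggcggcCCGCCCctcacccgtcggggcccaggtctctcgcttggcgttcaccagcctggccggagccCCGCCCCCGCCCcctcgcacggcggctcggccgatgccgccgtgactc
Elovl6, chr3:129532236-129532385, plus strand: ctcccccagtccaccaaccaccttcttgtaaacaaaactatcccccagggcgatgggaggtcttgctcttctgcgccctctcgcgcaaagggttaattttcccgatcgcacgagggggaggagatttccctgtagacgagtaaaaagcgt

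GGGCGG occurred 4 times before Acly and 3 times before Me1 and was not found before Cidec and Elovl6, while 28.6% of 32851 RefSeq promoters of the same length held it. CCAAT (24.5% of promoters), CACGTG (4.3%), the E-box core, and TCACNCCAC (0.639%), a sterol response element, were searched on both strands and their letters were not in these 4 windows. Matches of letters describe the windows and do not show binding.

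Me1, malic enzyme, which supplies NADPH for synthesis, measured 9.06, 9.68, 9.70 and 9.72 in B6 and 7.58, 7.77, 8.40 and 7.57 in 129S6; B6 replicate 13 was the lowest of its group but still above every 129S6 array. Its difference was 1.71 ± 0.25 (adjusted p = 0.000512). Elovl6, which elongates the palmitate made by fatty acid synthase, measured 7.73, 8.30, 8.03 and 8.22 in B6 and 6.72, 6.79, 6.97 and 6.46 in 129S6, a difference of 1.33 ± 0.22 (adjusted p = 0.00125). Scd1, the desaturase that makes oleate, measured 13.02, 12.56, 13.06 and 13.03 in B6 and 11.57, 11.62, 12.12 and 11.32 in 129S6, a difference of 1.26 ± 0.21 (adjusted p = 0.00178). Neither gene had overlapping groups. Fasn, fatty acid synthase itself, measured 10.20, 10.33, 10.51 and 10.65 in B6 and 9.45, 9.17, 9.32 and 9.05 in 129S6, a difference of 1.17 ± 0.15 (adjusted p = 9.24e-05). Acly, which makes cytosolic acetyl-CoA from citrate, differed by 0.72 ± 0.17 (adjusted p = 0.0223). These 5 of 14 measured synthesis genes passed (35.7%), none was lower, and the median difference was 0.57 against -0.02 over all genes. None of the 5 passed with the run as covariate, where the differences were 0.95 for Me1, 1.15 for Elovl6, 0.43 for Scd1, 0.96 for Fasn and 0.23 for Acly.

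Of the regulators of these enzymes, Srebf1, which encodes the sterol response factor that drives lipogenic genes, did not pass, with B6 arrays of 9.90 to 10.26, 129S6 arrays of 9.96 to 10.27 and a 95% interval of the difference from -0.26 to 0.26. Pparg, the nuclear receptor of fat cells, was low in both groups, 4.66 to 5.43 in B6 and 3.76 to 4.17 in 129S6, and passed with a difference of 0.97 ± 0.24 (adjusted p = 0.0249; 0.31 with run, which did not pass). No other of the 7 regulators passed. In triglyceride synthesis 1 of 11 genes passed, Gpam, the mitochondrial acyltransferase of the initial step, at 0.80 ± 0.14 (adjusted p = 0.00303; 0.37 with run, which did not pass).

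**Figure D2:**
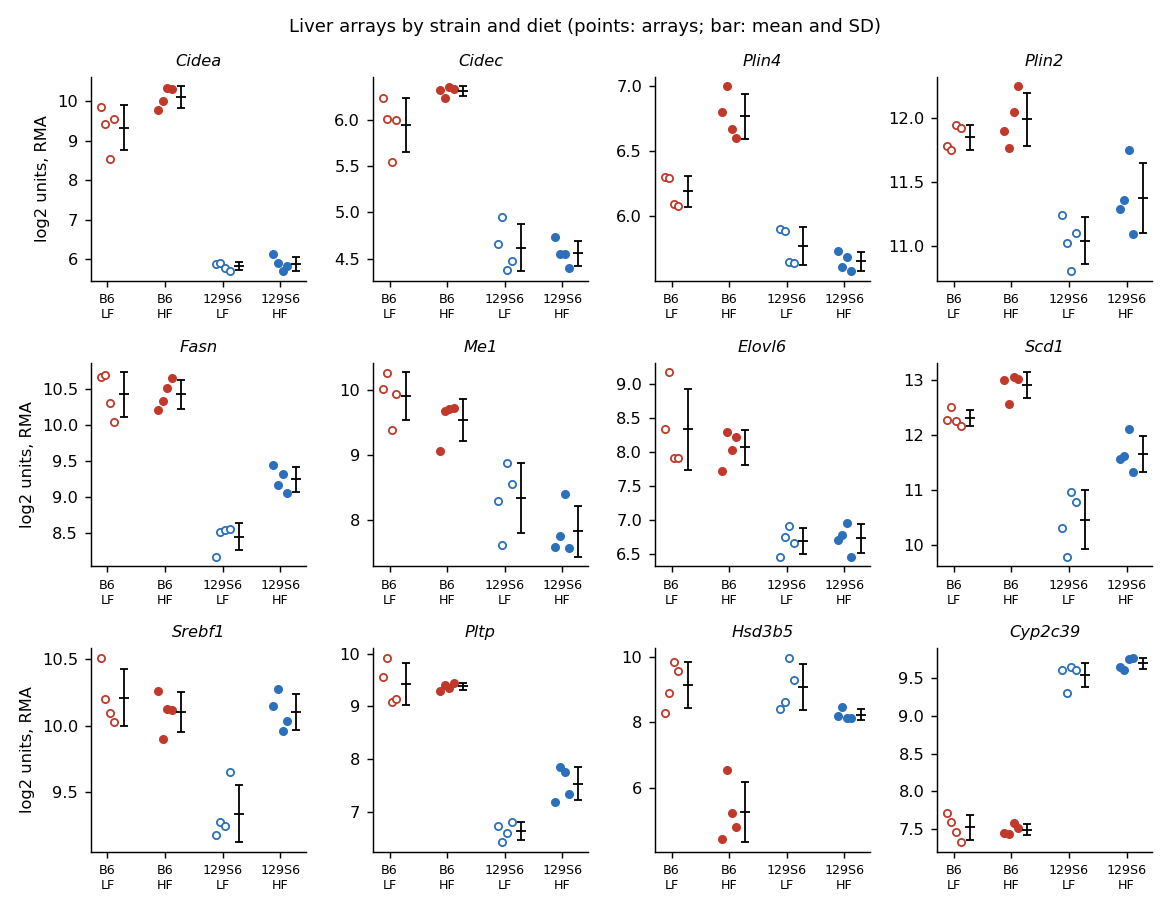
Log2 expression of 12 genes on the 16 liver arrays; open points are low-fat (LF) and filled points high-fat (HF) arrays, B6 in red and 129S6 in blue, each point 1 array, with the mean and SD in black and an axis of its own for each gene. The B6 arrays of Cidea, Cidec and Pltp lie above all 129S6 arrays on both diets, whereas Hsd3b5 is low only in the B6 high-fat group.

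Genes of lipid use and transport gave mixed results. Abcd3, a peroxisomal transporter of fatty acids, measured 11.22, 11.26, 11.41 and 11.50 in B6 and 9.44, 9.68, 10.08 and 9.66 in 129S6, without overlap, a difference of 1.64 ± 0.13 (adjusted p = 7.12e-07; adjusted p = 0.0019 with run). Further targets of PPARA, the receptor that switches on fatty acid oxidation, passed with higher values in B6: Vnn1, pantetheinase, by 1.62 ± 0.31, Pdk4, which restrains pyruvate oxidation, by 0.71 ± 0.18, and Abcd2, a peroxisomal transporter, by 0.48 ± 0.10 (adjusted p 0.00473, 0.0253 and 0.0098). Vnn1 overlapped, since 129S6 replicate 9 measured 8.32 and the other 129S6 arrays 6.47 to 6.66. These were 4 of 21 measured PPARA targets, with none lower and a median of 0.14. The mean over the list was 9.24 on 129S6 replicate 9, above every B6 array (8.66 to 8.89), and 8.28 to 8.52 on the other 129S6 arrays. Abcd3 and Abcd2 also passed with the run. When 129S6 low-fat replicate 11 was left out of that fit, Abcd2 did not pass (adjusted p = 0.0738). Cyp4a10 and Cyp4a14, the fatty acid hydroxylases used most as readouts of that receptor, did not pass (-0.87 ± 0.40 and -0.73 ± 0.36), and Ppara itself was at 0.52 ± 0.43. Of 15 genes of mitochondrial oxidation and ketogenesis 2 passed (13.3%), both lower in B6: Cpt2, of the carnitine shuttle, at -0.45 ± 0.12, and Etfb, an electron carrier of beta-oxidation, at -0.41 ± 0.10. Neither passed with the run. Cpt2 kept its call in 2 and Etfb in 4 of the 8 fits that left out an array. The mean over this list was also highest on 129S6 replicate 9, at 9.555, against 8.96 to 9.25 on the other 129S6 arrays and 9.10 to 9.23 in B6. In fatty acid uptake and binding 2 of 16 genes passed (12.5%), both lower. They were Scarb1, the HDL receptor, at -0.92 ± 0.20 (adjusted p = 0.0121) and Slc27a5, a bile acid and fatty acid ligase, at -0.45 ± 0.10 (adjusted p = 0.0158). Of the 16 differences 9 were positive and the median was 0.04. Arrays did not overlap for 6 of the 16 genes higher in B6 and 2 lower, against 9.44% and 8.31% of all genes. Neither Scarb1 nor Slc27a5 passed with the run. When 129S6 low-fat replicate 11 was left out of that fit, Scarb1 passed (adjusted p = 0.00781). Cd36, the fatty acid translocase, was 5.87 to 6.07 in B6 and 5.28 to 5.77 in 129S6 and did not pass (0.49 ± 0.15, adjusted p = 0.0661).

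Lipoprotein genes passed in both directions. Pltp, which transfers phospholipid to HDL, measured 9.30, 9.41, 9.36 and 9.45 in B6 and 7.20, 7.84, 7.76 and 7.33 in 129S6, a difference of 1.85 ± 0.17 (adjusted p = 3.48e-06; adjusted p = 0.0044 with run). Apom, the HDL apolipoprotein that carries sphingosine-1-phosphate, measured 8.21, 7.68, 7.77 and 7.82 in B6 and 9.15, 9.28, 9.51 and 8.96 in 129S6, a difference of -1.35 ± 0.15 (adjusted p = 2.29e-05; adjusted p = 0.0014 with run). Both kept the groups apart. Apoh, a phospholipid-binding apolipoprotein, was at -0.61 ± 0.12 (adjusted p = 0.00627; adjusted p = 0.089 with run). Apoa4 (-0.46 ± 0.18, adjusted p = 0.185) and Mttp, which loads lipid onto apolipoprotein B (0.02 ± 0.45, adjusted p = 0.986), did not pass. In all, 1 of 18 genes of this list was higher, 2 were lower and the median was -0.07.

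Sterol genes passed in both directions too. Sc5d and Hmgcs1, enzymes of cholesterol synthesis, were higher in B6 (1.46 ± 0.29 and 1.01 ± 0.24, adjusted p 0.00622 and 0.0205) and Mvk, mevalonate kinase, lower (-0.46 ± 0.12, adjusted p = 0.0327); 10 of the 15 genes had a negative difference and the median was -0.20. With the run as covariate none of these passed and Hmgcs1 was at -0.03, whereas 3 others of the list passed there, all lower in B6. Mvk lost its call whichever of the 8 arrays was left out. Of 14 bile acid genes, Abcc2, the canalicular export pump, was higher (1.22 ± 0.17, adjusted p = 0.000214; adjusted p = 0.057 with run), and Cyp7b1, of the oxysterol branch of bile acid synthesis, and Nr0b2, the repressor SHP, were lower (-1.44 ± 0.37 and -0.86 ± 0.21, adjusted p 0.0346 and 0.0224). Cyp7b1 was also at -2.69 with the run (adjusted p = 0.014), whereas Nr0b2 was at 0.02. Cyp7b1 kept its call in 1 of the 8 fits that left out an array, the one without 129S6 replicate 7, and lost it with the run when the low-fat 129S6 replicate 11 was left out (adjusted p = 0.101). Cyp7a1, the rate-limiting enzyme of the classic branch, measured 5.12 to 5.33 in B6 and 4.57 to 5.36 in 129S6 and did not pass (0.25 ± 0.25).

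Most cytochromes P450 that passed were lower in B6. Cyp2c39, a retinoic acid and drug hydroxylase, measured 7.45, 7.43, 7.58 and 7.51 in B6 and 9.65, 9.62, 9.75 and 9.78 in 129S6. The arrays of each strain lay close together on either side of the gap, and the difference was -2.21 ± 0.10 (adjusted p = 1.19e-10; -2.37 with run, adjusted p = 2.3e-07). Cyp1a2, which oxidises caffeine, was at -1.15 ± 0.15 (adjusted p = 0.000188), Cyp2c70, which makes muricholic acids, was at -0.92 ± 0.15 and Cyp2c38 at -0.65 ± 0.14. Cyp2b9, which is typical of female liver, was higher at 1.71 ± 0.32 (adjusted p = 0.00364), with 6.83 to 7.70 in B6 and 5.41 to 5.70 in 129S6, and Cyp3a11 was at 0.64 ± 0.17 (adjusted p = 0.036). Cyp2b10, the usual readout of the receptor Nr1i3, did not pass (0.01 ± 0.13), and Nr1i3 itself was lower in B6 (-1.04 ± 0.16, adjusted p = 0.000757). Of 22 cytochromes of families 1 to 3, 2 were higher and 5 lower (31.8%), the median was -0.19, and Cyp2c39, Cyp1a2 and Cyp2c70 also passed with the run.

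Of the conjugating enzymes that passed, most were higher in B6. Of 20 glutathione transferase genes, 5 were higher in B6 and 1 lower (30%; median 0.09): Mgst3 and Mgst1, the membrane-bound forms, by 1.09 ± 0.15 and 0.82 ± 0.18, and Gstm3 and Gstm6, of the mu class, by 0.95 ± 0.13 and 0.41 ± 0.08, while Gstt2, of the theta class, was at -0.82 ± 0.14. Of 20 glucuronosyltransferases, sulfotransferases, carboxylesterases and related enzymes, 5 were higher and 2 lower (35%; median 0.14). The carboxylesterases Ces1c and Ces1g, which hydrolyse esters including triglyceride, were higher by 1.62 ± 0.20 and 1.45 ± 0.22 (adjusted p 7.24e-05 and 0.000549), and Nnmt, which methylates nicotinamide, by 0.89 ± 0.17. Tpmt, thiopurine methyltransferase, and Sult1b1, a thyroid hormone sulfotransferase, were lower (-0.94 ± 0.19 and -0.59 ± 0.12). Tpmt and Sult1b1 also passed with the run, and none of the genes of these lists that were higher did. When 129S6 low-fat replicate 11 was left out of that fit, Tpmt (adjusted p = 0.0103) and Ces1c (adjusted p = 0.000197) passed and Sult1b1 did not (adjusted p = 0.0997).

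The steroid enzymes that passed were lower in B6, as were most genes of sex bias and growth hormone action that passed. Hsd3b5, a 3-ketosteroid reductase that is typical of male mouse liver and depends on pulsed growth hormone, measured 4.42, 6.53, 5.24 and 4.79 in B6 and 8.18, 8.47, 8.14 and 8.13 in 129S6. The B6 arrays were spread over more than 2 log2 units, yet the highest of them lay below the lowest 129S6 array. The difference was -2.99 ± 0.41 (adjusted p = 0.000264; -4.10 with run, adjusted p = 0.002). Hsd3b2 was at -1.95 ± 0.28, with 6.97 to 7.27 in B6 and 8.84 to 9.52 in 129S6, Hsd11b1, which regenerates corticosterone, at -1.24 ± 0.15, and Hsd17b2, which inactivates sex steroids, at -0.91 ± 0.11 (adjusted p 0.000437, 5.16e-05 and 4.93e-05). Hsd3b6 passed at -0.54 ± 0.15 (adjusted p = 0.041) and kept its call in only 1 of the 8 fits that left out an array. These were 5 of 18 steroid genes (27.8%, median -0.20), none was higher, and Hsd3b5, Hsd3b2, Hsd11b1 and Hsd17b2 passed with the run. When 129S6 low-fat replicate 11 was left out of that fit, Hsd11b1 did not pass (adjusted p = 0.0755).

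Igfals, the acid-labile subunit that holds IGF1 in the blood and is induced by growth hormone, measured 8.20 to 8.59 in B6 and 9.43 to 9.61 in 129S6, a difference of -1.14 ± 0.11 (adjusted p = 8.31e-06; adjusted p = 0.013 with run). Igfbp2, an IGF binding protein, was at -1.29 ± 0.17 (adjusted p = 0.000126; adjusted p = 0.029 with run), and Mup3, a male-biased urinary protein, at -0.40 ± 0.10 (adjusted p = 0.032). Mup3 did not pass with the run (adjusted p = 0.24) and was at -0.18 after quantile normalization (adjusted p = 0.298), and it lost its call in 5 of the 8 fits that left out an array. Igf1 did not pass (-0.42 ± 0.13, adjusted p = 0.0819), though it did with the run (-1.01, adjusted p = 0.0013). Counting Hsd3b5, Cyp7b1 and Cyp2b9, which other lists hold too, 1 of 23 genes of sex bias and growth hormone action was higher and 5 were lower (26.1%; median -0.27). The male-biased hydroxylase Cyp4a12b, outside that list, was at -1.61 ± 0.23, with 9.26 to 10.35 in B6 and 11.39 to 11.90 in 129S6 (adjusted p = 0.000285; adjusted p = 0.11 with run).

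**Figure D3:**
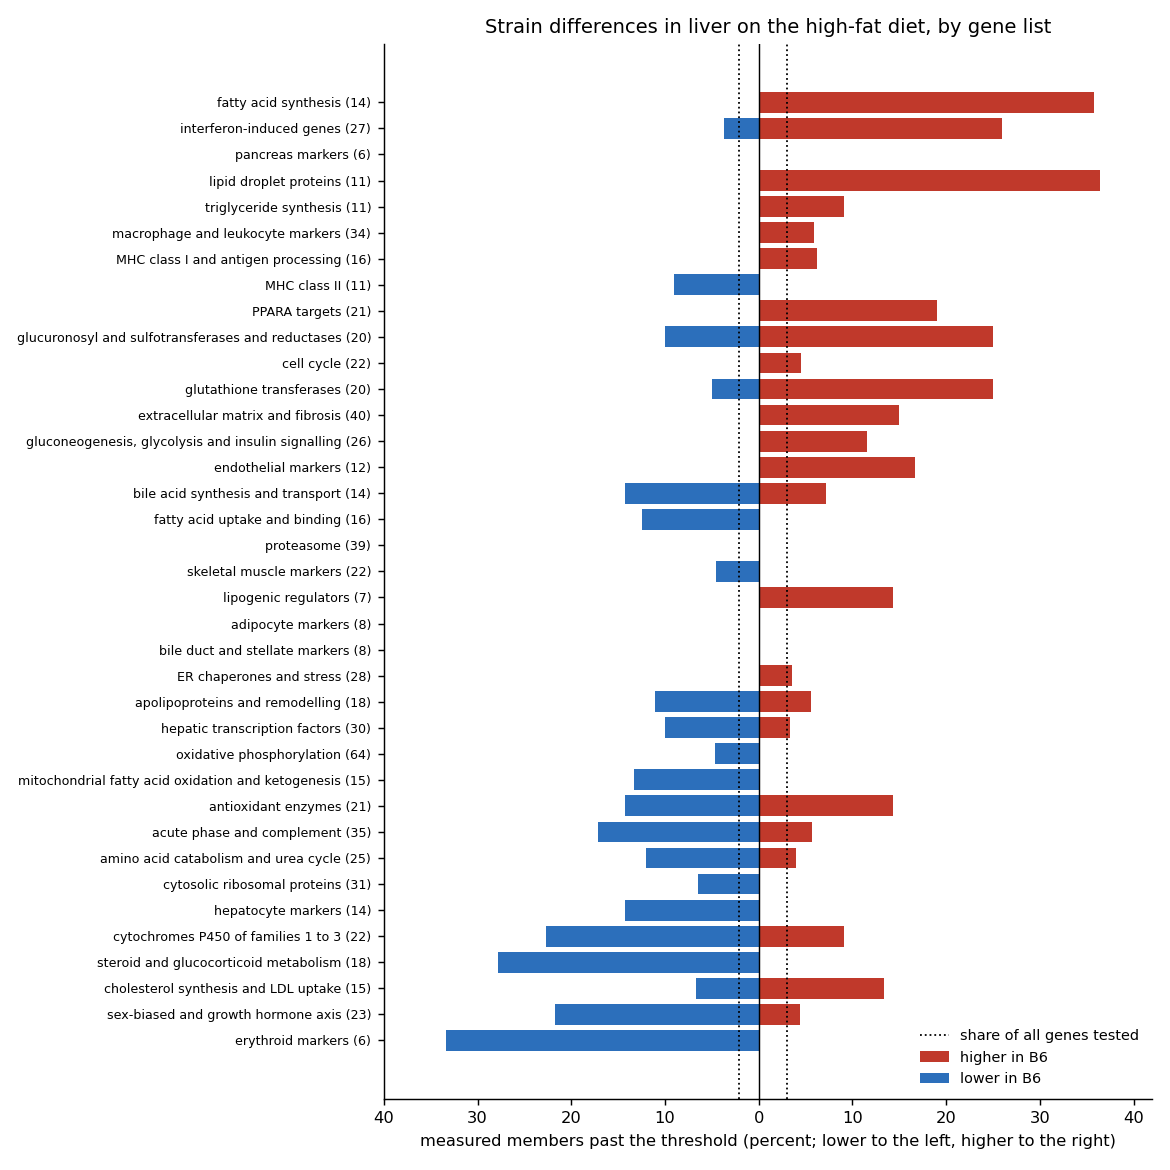
Percent of the measured members of each of 37 gene lists that passed, lower in B6 to the left (blue) and higher to the right (red), with the number measured in brackets and lists ordered by their median difference. Dotted lines mark the shares over all 8251 genes, 2.13% lower and 3.03% higher. The lists were chosen with earlier results of these data known. Fatty acid synthesis (35.7%) and lipid droplet proteins (36.4%) have only higher genes, and steroid metabolism (27.8%) only lower ones.

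Among secreted liver proteins the largest difference was that of Fga, and most others that passed were lower in B6. Fga, the alpha chain of fibrinogen, measured 11.32, 11.62, 11.84 and 11.91 in B6 and 8.53, 8.64, 8.84 and 8.56 in 129S6, an 8.17-fold higher level (3.03 ± 0.13, adjusted p = 1.19e-10; 3.15 with run). The other chains of fibrinogen, read after their values were seen, were not higher: Fgb was at -0.47 and Fgg at -0.35, and neither passed. Apcs, serum amyloid P, measured 7.93, 7.42, 7.70 and 7.85 in B6 and 9.83, 9.94, 10.58 and 9.42 in 129S6, a difference of -2.22 ± 0.25 (adjusted p = 3.24e-05; adjusted p = 0.0001 with run). Hamp, hepcidin, which limits iron release, was at -1.14 ± 0.19, Serpina3n, a protease inhibitor, at -0.86 ± 0.13 and Saa4, a constitutive amyloid A, at -1.33 ± 0.32 (adjusted p 0.0012, 0.00081 and 0.0213); these 3 did not pass with the run. Of 35 acute phase and complement genes 2 were higher and 6 lower (22.9%; median -0.11). Among 14 hepatocyte markers Ahsg, fetuin-A, and Apoh were lower (Ahsg -0.66 ± 0.08, adjusted p = 7.24e-05, and adjusted p = 0.04 with run). Ahsg did not pass with the run when 129S6 low-fat replicate 11 was left out.

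Large differences with separate groups were also found for genes of varied roles, all but H2-Q1 outside the lists. Lgals1, galectin-1, measured 9.73, 9.61, 9.61 and 9.48 in B6 and 6.39, 6.50, 6.39 and 6.54 in 129S6, an 8.88-fold higher level (3.15 ± 0.09, adjusted p = 4.52e-13; 3.13 with run). Spg21, which encodes maspardin, was higher at 2.97 ± 0.32, Gas5, a non-coding host gene of small nucleolar RNAs, at 2.84 ± 0.25, the uncharacterised transcript 0610005C13Rik at 2.39 ± 0.12 and the class I histocompatibility gene H2-Q1 at 2.15 ± 0.11, the 1 of 16 genes of class I antigen presentation that passed (6.25%; median 0.19). Smaller but still over 3-fold were Cd59a, which protects cells from complement, at 1.80 ± 0.18, Serpina12, the adipokine vaspin, at 1.79 ± 0.28, Anxa5, annexin A5, at 1.76 ± 0.13 and Tubb2a, a tubulin, at 1.72 ± 0.21. All of these except Serpina12 (adjusted p = 0.051) passed with the run. In the other direction Gdpd3, a lysophospholipase D, was at -1.89 ± 0.22, Asic5, an ion channel, at -1.76 ± 0.20, Selenbp1, methanethiol oxidase, at -1.50 ± 0.19, the growth factor receptor Egfr at -1.40 ± 0.26 and the chemokine Ccl9 at -1.29 ± 0.14. Each of them except Egfr (adjusted p = 0.26) passed with the run. When 129S6 low-fat replicate 11 was left out of that fit, Egfr passed (-1.66, adjusted p = 0.0255) and Selenbp1 did not (adjusted p = 0.0751). Actb, the beta-actin gene often used as a reference, was at -2.22 ± 0.58 (5.79 to 6.73 in B6, 8.23 to 8.84 in 129S6, adjusted p = 0.0356); it was at -0.63 with the run (adjusted p = 0.72) and lost its call when any of the 8 arrays was left out.

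Immune, vascular and matrix genes were measured beside the markers of the cells that make them. Interferon-induced genes were higher in B6 for 7 of 27 and lower for 1 (29.6%; median 0.37): Ifi204 by 1.05 ± 0.19, Irf7 by 0.84 ± 0.17, Usp18 by 0.82 ± 0.19, Ifit1 by 0.77 ± 0.12 and Ifi27 by 0.52 ± 0.13. B6 replicate 13 was the highest array for each of these 5. Irf7 was 8.03 there and 7.04 to 7.16 on the other B6 arrays, against 6.42 to 6.55 in 129S6. Without replicate 13 the differences were 0.81 for Ifi204, 0.61 for Irf7, 0.58 for Usp18 and 0.67 for Ifit1, and those 4 still passed, while Ifi27 lost its call. No gene of the list passed with the run.

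Of 34 macrophage and leukocyte markers 2 passed, Mpeg1 and Ctss, genes of phagocyte killing and of the cathepsin that cuts the class II invariant chain (5.88%, near the 5.16% of all genes). Mpeg1 was 10.28 in B6 replicate 13, 8.31 to 8.43 on the other B6 arrays and 7.43 to 7.75 in 129S6; without replicate 13 its difference was 0.76 (adjusted p = 0.00709). Ctss was 10.19 in replicate 13, 7.89 to 8.16 on the other B6 arrays and 6.79 to 7.34 in 129S6, and without replicate 13 it did not pass (0.87, adjusted p = 0.059). Replicate 13 was the highest of the 8 arrays for 25 of the 34 markers, against 17.0% of all genes. In bulk tissue, more cells of a type and more RNA per cell cannot be told apart.

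Matrix genes were higher for 6 of 40 (15%; median 0.09) and lower for none. Col4a1, a basement membrane collagen, measured 8.62, 8.06, 7.91 and 8.05 in B6 and 6.23, 6.33, 6.44 and 6.14 in 129S6, a difference of 1.88 ± 0.23 (adjusted p = 8.64e-05; adjusted p = 0.097 with run). Its partner chain Col4a2 was higher by 0.71 ± 0.14, the collagen chaperone Serpinh1 by 1.06 ± 0.15, the protease inhibitor Timp3 by 0.76 ± 0.19 and the macrophage elastase Mmp12 by 0.66 ± 0.14. Col4a1 without replicate 13 was at 1.72 (adjusted p = 0.000392). Of these 5, Serpinh1 and Mmp12 passed with the run. When 129S6 low-fat replicate 11 was left out of that fit, Mmp12 passed (adjusted p = 0.0184) and Serpinh1 did not. The fibrillar collagens Col1a1 and Col1a2, read after their values were seen, were at 0.14 and 0.01 in the probe sets used, which did not pass, while a further set of each was at 1.28 and 0.78 and did pass (adjusted p 0.0039 and 0.013). Of 12 endothelial markers Lyve1 and Cdh5 were higher (0.92 ± 0.12 and 0.74 ± 0.20, adjusted p 0.000104 and 0.0396); Cdh5 was at -0.13 with the run and lost its call whichever of the 8 arrays was left out. Of the 12 differences 8 were positive and 4 negative, with a median of 0.06, and the list mean was 6.79 to 6.95 in B6 and 6.61 to 6.68 in 129S6. None of 8 bile duct and stellate markers passed.

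The means over 6 erythroid markers were 7.57 to 7.63 in B6 and 7.92 to 8.06 in 129S6, without overlap. Of the 6 differences 4 were negative and 2 positive (at most 0.20, for Car2), and the median was -0.34. Hbb-b2, a beta globin, measured 7.91 to 8.21 in B6 and 8.65 to 9.56 in 129S6 (-1.20 ± 0.30, adjusted p = 0.0267), and Alas2, of erythroid haem synthesis, was at -0.72 ± 0.17 (adjusted p = 0.0236), 2 of 6 in all. Neither passed with the run. The share of residual blood in the samples was not tested.

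Genes of amino acid and sugar handling differed in single members. Agxt, which clears glyoxylate, Gnmt, which uses up methyl groups of S-adenosylmethionine, and Gldc, of glycine cleavage, were lower in B6 (-1.10 ± 0.16, -0.54 ± 0.08 and -0.73 ± 0.18), and Csad, of taurine synthesis, was higher (1.42 ± 0.24, adjusted p = 0.00137), among 25 genes with a median of -0.12. G6pc, the last step of glucose release, measured 10.50, 10.58, 10.72 and 10.63 in B6 and 9.76, 10.03, 9.81 and 9.63 in 129S6, a difference of 0.80 ± 0.11 (adjusted p = 0.000193). Gbe1, the glycogen branching enzyme, was higher by 1.49 ± 0.23 (adjusted p = 0.000687). With Pdk4 these were 3 of 26 glucose genes, none lower, while Pck1, of glucose synthesis, did not pass (0.11 ± 0.16). Of the genes that passed, Agxt among the amino acid genes and none among the glucose genes also passed with the run. In that fit 5 of the 25 amino acid genes passed, all lower in B6. When 129S6 low-fat replicate 11 was left out of it, Agxt did not pass (adjusted p = 0.0761).

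Among 30 liver transcription factors, Bhlhe40, a clock-related repressor, was higher (1.06 ± 0.22, adjusted p = 0.0105), and Nr1i3, Nr0b2 and Foxa3 (-0.72 ± 0.16, adjusted p = 0.0141) were lower. Antioxidant enzymes split evenly, with 3 of 21 higher and 3 lower; Glrx, Sod3 and Prdx4 were lower (-0.53 ± 0.10, -0.39 ± 0.09 and -0.67 ± 0.15) and Prdx3 was higher (0.52 ± 0.12). Of 28 genes of endoplasmic reticulum stress, Atf6, a sensor of unfolded protein, passed at 0.69 ± 0.11 (adjusted p = 0.00137). Of the genes named in these 3 groups Prdx4 alone passed with the run, where Prdx3 was at 0.14 and Nr1i3 at -0.59.

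Large housekeeping groups had shares of passing members near or below the 5.16% of all genes. Of 64 oxidative phosphorylation genes 3 passed, all lower (4.69%; median -0.08), among them Sdhb at -0.47 ± 0.08 (adjusted p = 0.00178) and Uqcrc1 at -0.44 ± 0.12. None of the 64 passed with the run, where Uqcrc1 was at -0.13, and Uqcrc1 lost its call in 7 of the 8 fits that left out an array and after quantile normalization (adjusted p = 0.087). In 31 cytosolic ribosomal protein genes 2 were lower (6.45%), Rps3a1 (-0.46 ± 0.11) and Rps18 (-0.48 ± 0.12), with a median of -0.14. Both passed with the run, but not when 129S6 low-fat replicate 11 was left out of that fit (adjusted p 0.173 and 0.216). Rps3a1 kept its call in 4 and Rps18 in 3 of the 8 fits that left out an array. None of 39 proteasome genes passed (median 0.03; 5 had an unadjusted p under 0.05 in limma, and none passed with the run).

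The strain difference on the low-fat diet, measured on 8 other arrays that enter the same fit and share its estimate of the spread, served to ask which of these differences were present without the high-fat food. Of the 426 genes, 302 had the same sign on the low-fat diet and 155 passed there in the same direction, 116 higher and 39 lower, while 36 passed in the opposite direction, 35 of them lower in B6 on the high-fat diet and higher on the low-fat diet. The 155 were 36.4% of the genes that passed on the high-fat diet and 13.6% of the 1142 that passed on the low-fat diet (13.8% of all genes), of which 826 were higher (10%) and 316 lower (3.83%). Over all 8251 genes the differences on the diets had a Pearson correlation of 0.352, given as a description; the points share strains, tissue and probe sets. The B6 low-fat arrays lay alone in a run of their own and had Gapdh 3′ minus 5′ signals of 0.824 to 1.69, against 0.225 to 0.346 on the B6 high-fat arrays, so on the low-fat diet strain, run and this signal cannot be told apart.

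Cidea, Lgals1, Fga, Gas5, Anxa5, Cd59a, Cidec and Cyp2c39 were among the genes that passed the same way on both diets. Cidea had 9.33 in B6 and 5.82 in 129S6 on the low-fat diet, a difference of 3.51, and Lgals1 3.29, Fga 3.33 and Gas5 3.15. For these the test of the high-fat minus the low-fat difference did not pass (adjusted p 0.18, 0.59, 0.37 and 0.66). The low-fat difference of Abcd3 was 2.22, and 7 of 11 droplet genes and 10 of 14 fatty acid synthesis genes were higher there, with medians of 0.42 and 0.95.

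**Figure D4:**
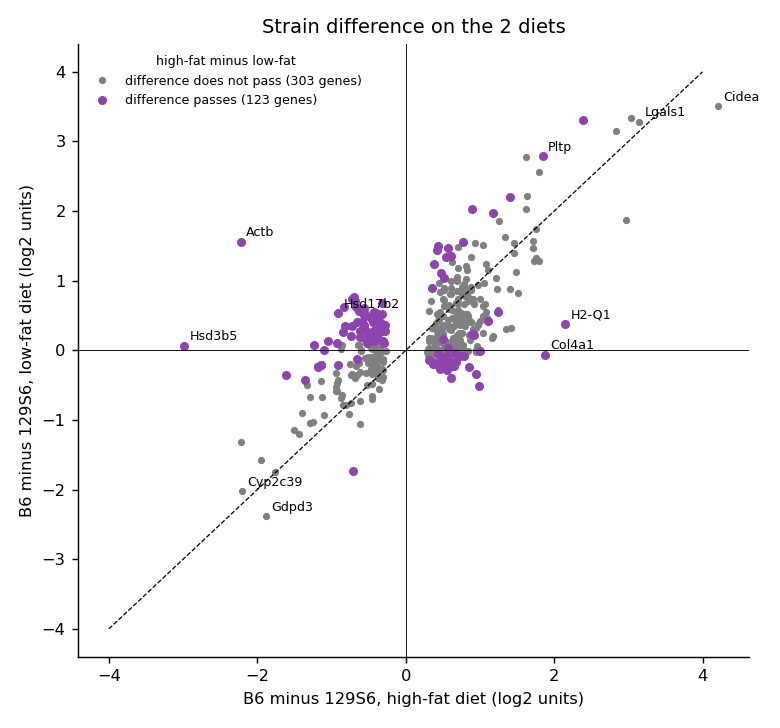
Strain difference (B6 minus 129S6, log2 units) on the high-fat diet (x axis) against that on the low-fat diet (y axis) for the 426 genes that passed on the high-fat diet; each point is a gene, the dashed line marks equal differences, and purple points passed the test of the difference between the diets (123 genes). Cidea and Lgals1 lie near the line, and Hsd3b5, Actb, H2-Q1 and Col4a1 lie near or across the horizontal axis.

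The difference between the diets itself passed for 453 genes (5.49%), 71 with a more positive (0.861%) and 382 with a more negative value (4.63%) on the high-fat diet; with the array SD as a covariate these were 434 and 388. Among the 426 genes it passed for 123 (28.9%), 35 more positive and 88 more negative. The 426 were chosen by the high-fat difference, which this test contains, so a share above that of all genes follows in part from the choice. Strain, run and RNA signal are tied together in this test, as they are on the low-fat diet. Hsd3b5 had means of 9.14 in B6 and 9.07 in 129S6 on the low-fat diet, and its difference changed by -3.05 ± 0.59 (adjusted p = 0.0058). Hsd11b1 and Hsd17b2 had changes of -1.32 and -1.44, and Hsd17b2 went from 0.53 on the low-fat diet to -0.91. Actb had the largest change, -3.78, from 1.56 on the low-fat diet, and Alas2, Hgfac, an activator of hepatocyte growth factor, Fpgs, which retains folates in cells, and Tsc22d1, a transcription factor, changed by -1.46, -1.47, -1.44 and -1.38. Igfals, Cyp1a2 and Apom had changes of -0.93, -0.94 and -0.93. In the other direction Col4a1 had a low-fat difference of -0.06 and changed by 1.94 ± 0.33 (adjusted p = 0.0028), H2-Q1 changed by 1.76 from 0.39, and Plin4 by 0.69 from 0.42. Cd99, an adhesion molecule, Gja1, connexin 43, Kif5b, a kinesin, and Hk2, a hexokinase, did not pass on the low-fat diet (-0.51, -0.34, -0.24 and -0.02) and were higher in B6 on the high-fat diet (0.98, 0.94, 0.86 and 1.00), as was Car8, a carbonic anhydrase relative (-0.39 and 0.61). None of these 5 passed on the high-fat diet with the run, where Gja1 was at 0.06 and Car8 at 0.17, nor did Alas2, Hgfac, Fpgs and Ssr1. Cd99 and Fpgs lost their high-fat call whichever of the 8 arrays was left out. Ssr1, of the translocon, was lower on both diets (-1.73 and -0.71). Of the fatty acid synthesis genes that passed, Fasn had a smaller difference on the high-fat diet (1.17 against 1.97, change -0.80, adjusted p = 0.033), and Srebf1 had a low-fat difference of 0.87 (change -0.87, adjusted p = 0.0078). Oxidative phosphorylation passed with higher values in B6 on the low-fat diet for 36 of 64 genes, with a median of 0.45, and their change was more negative for 23 and more positive for none.

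The probe sets used in liver were read in skeletal muscle and epididymal fat of high-fat mice. In muscle 2394 genes passed (29%), and 120 of the 426 liver genes passed there in the same direction and 53 in the opposite one; in fat 33 passed (0.4%), 9 of them with the liver and 3 against it. Muscle B6 arrays had a smaller SD over probe sets (1.59 to 1.70) than muscle 129S6 arrays (1.80 to 1.84), and fat arrays had Gapdh 3′ minus 5′ signals of up to 6.03. By the numbers in the array names, the fat B6 high-fat arrays lay in another run than the fat 129S6 high-fat arrays. Strain and run therefore cannot be told apart in fat, as in liver, whereas the muscle arrays of both strains lay in the same run. In all 3 tissues 5 genes passed in the same direction. Gas5 was higher by 2.84 in liver, 2.73 in muscle and 2.68 in fat. Gdpd3 was at -1.89, -2.77 and -3.78, Glo1, glyoxalase 1, at -0.94, -2.10 and -1.26, Ocel1 at -1.10, -0.92 and -1.47 and Hbb-b2 at -1.20, -3.14 and -1.71. Cidea and Lgals1 were not higher in B6 in these tissues: in muscle they were at -1.32 ± 0.47 and -2.58 ± 0.59 (adjusted p 0.0469 and 0.00909), and in fat at -1.42 ± 0.30 and -0.03 ± 0.15 (adjusted p 0.0783 and 0.969).

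**Figure D5:**
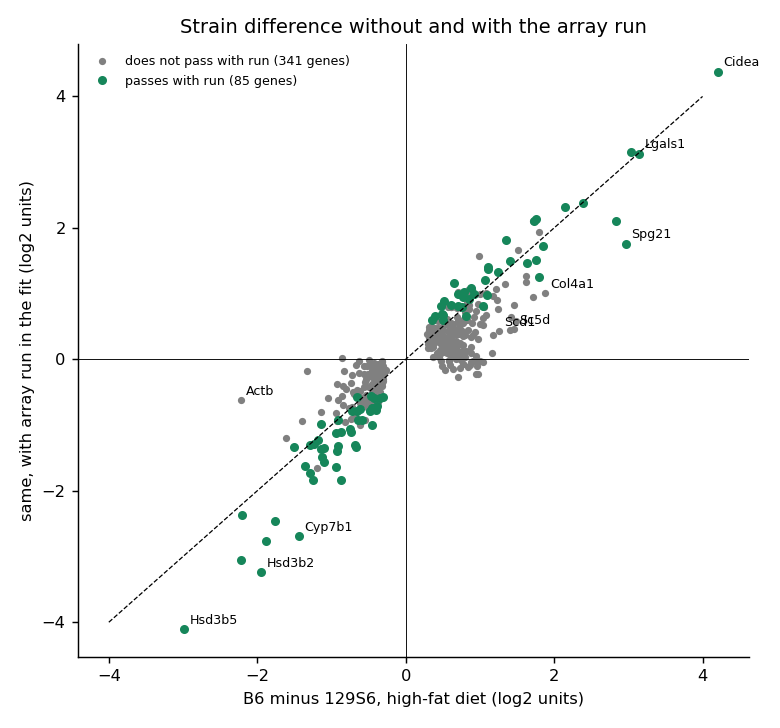
Strain difference on the high-fat diet (log2 units) in the fit of the 4 group means (x axis) against the fit that also holds the run of array numbers (y axis) for the 426 genes that passed; each point is a gene, the dashed line marks equal values, and green points also passed with the run (85 genes). Cidea, Lgals1 and Cyp7b1 stay past the threshold, and Scd1, Sc5d, Col4a1 and Actb do not.

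Where a gene had several probe sets, the one with the highest mean over the liver arrays was used, and some of the others did not pass in the same direction. Among well measured ones, a further set was at -1.81 for Actb (adjusted p = 0.18), -0.53 for Egfr, 0.85 for Sc5d, 0.43 for Gstm3, 0.48 for Gstm6, -0.43 for Mvk, -0.24 for Etfb, -0.38 for Mup3, 0.15 for Irf7, 0.11 for Tubb2a, -0.003 for Ssr1 and -0.25 for Scd1. Further sets that lay below 5 on average were near 0 for Gas5 (0.07 and 0.00), Apom (0.08), Cpt2 (0.11), Mgst3 (0.04), Igfals (0.05), Ifi204 (0.08 and 0.19) and Mpeg1 (0.08), and at 0.28 for Cd36 and -0.17 for Hk2. A further set did pass in the same direction for Cyp7b1 (-2.12), Elovl6 (1.95), Scd1 (1.37), Egfr (-1.26), Glo1 (-1.10), Nr1i3 (-0.56 and -0.44), Mmp12 (0.56) and Gja1 (0.32), and, unlike the set used, for Igf1 (-0.60, adjusted p = 0.0277), Col1a1 (1.28) and Col1a2 (0.78). Those of Mmp12 and Gja1 also lay below 5 on average, at 4.65 and 2.82, and the latter was near the lowest value of the data, 2.26. Members of the Hsd3b, Cyp2c, Cyp4a, Ces1, Gstm, Mup, Ifi200 and H2 families have close relatives, and how far their probes also bind these was not tested.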

How the data were processed

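Liver RNA was measured on 1-colour Affymetrix arrays. The deposited log2 values were made by the authors with RMA, per the submitters' processing notes, a method that corrects background, gives all arrays 1 distribution and combines the probes of a set, with no version named. A shared distribution makes each value relative to the rest of its array, and RMA gives no detection call, so differences of genes near the lowest value of the table, 2.26, are compressed. Of 12488 probe sets, 66 were controls, 10833 carried 1 gene symbol (10817 matched by Entrez ID to the reference table), 396 several and 1193 none. The test took 1 set per gene, the brightest of those with 1 symbol, for 8251 genes. A base that differs between the strains under a probe can change its signal; probe sequences were not used here.

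The 16 liver arrays were grouped by the labelled strain and diet and fitted in limma (version 3.58.1; R 4.3.3) as 4 group means, with moderated variances and two-sided tests. Muscle and fat were fitted apart. Runs were read from the numbers in the array names and split the liver arrays into 3. On simulated data with 8251 genes, this fit recovered 74% of changes of 0.5 log2 units and 96% of changes of 1. The simulation drew independent normal values for each gene and changed 50 genes of each size. It held no run effect and no array that lay apart, so these rates need not hold for the real arrays. Alternatives were other choices of probe sets, a filter on dim genes, quantile normalization, an intensity trend, a fit of the compared groups alone, covariates for run, Gapdh signal and array SD, and leaving out each array; the run without 129S6 low-fat replicate 11, the run with the Gapdh signal and the fit without that replicate were added after seeing the data.

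The gene lists and the genes named were chosen with earlier results of these data known. By rule, the genes named are the 15 largest differences each way with separate groups, up to 5 passing members of a list with the smallest adjusted p, the 8 largest each way for high-fat minus low-fat among genes that also passed on the high-fat diet, those that passed in all 3 tissues, and a short list of lipid, bile acid, drug and glucose genes; some are left out, and Fgb, Fgg, Col1a1 and Col1a2 were added after their values were seen. Another probe set of a named gene is given where it did not pass in the same direction. Plots were made in Python 3.11.15 (matplotlib 3.10.9).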

Additional observations from a re-analysis of the deposited data

Results flagged for a closer look

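Among the 4 arrays of a strain, 1 array lay apart from the other 3 for 17 of 268 gene and group pairs, by Dixon's criterion on the gap relative to the group's range; chance sets about 1 in 20 apart in this way. Of these, 7 were B6 replicate 13, which was the highest array for Ctss at 10.19, against 7.89 to 8.16, Hk2 at 6.62, against 5.48 to 5.59, Irf7 at 8.03, against 7.04 to 7.16 and Mpeg1 at 10.28, against 8.31 to 8.43, and the lowest for Cyp4a10 at 7.35, against 8.41 to 8.50, Glo1 at 9.34, against 9.55 to 9.60 and Me1 at 9.06, against 9.68 to 9.72. 129S6 replicate 7 was the lowest for Spg21 at 3.70, against 4.26 to 4.32. 129S6 replicate 8 was the highest for Gdpd3 at 8.58, against 8.03 to 8.13, Hsd3b2 at 9.52, against 8.84 to 8.92 and Hsd3b5 at 8.47, against 8.13 to 8.18. 129S6 replicate 9 was the highest for Vnn1 at 8.32, against 6.47 to 6.66. 129S6 replicate 9 was the lowest for Tsc22d1 at 8.11, against 8.57 to 8.64. 129S6 replicate 10 was the lowest for Ifi27 at 8.43, against 8.68 to 8.73. B6 replicate 14 was the highest for Nr0b2 at 7.69, against 7.15 to 7.22. B6 replicate 14 was the lowest for Scd1 at 12.56, against 13.02 to 13.06. B6 replicate 15 was the lowest for Cyp2c70 at 7.76, against 7.97 to 7.99.

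For 46 of the genes named, the strain difference on the high-fat diet differed from that on the low-fat diet in limma's test of the difference itself (adjusted over all genes tested). The high-fat minus the low-fat difference, in log2 units, was negative for Actb (-3.78), Hsd3b5 (-3.05), Hgfac (-1.47), Alas2 (-1.46), Hsd17b2 (-1.44), Fpgs (-1.44), Tsc22d1 (-1.38), Hsd11b1 (-1.32), Cyp4a12b (-1.25), Gstt2 (-1.17), Nr1i3 (-1.17), Nnmt (-1.14), Agxt (-1.11), Scarb1 (-1.03), Hsd3b6 (-1.03), Gstm6 (-1.02), Sult1b1 (-0.99), Gldc (-0.95), Slc27a5 (-0.94), Sdhb (-0.94), Pltp (-0.94), Cyp1a2 (-0.94), Igfals (-0.93), Apom (-0.93), 0610005C13Rik (-0.92), Srebf1 (-0.87), Uqcrc1 (-0.84), Fasn (-0.80), Etfb (-0.70), Gnmt (-0.68), Cpt2 (-0.66) and Ahsg (-0.54). It was positive for Col4a1 (1.94), H2-Q1 (1.76), Apoa4 (1.60), Cd99 (1.5), Gja1 (1.29), Kif5b (1.09), Ssr1 (1.02), Hk2 (1.02), Car8 (1.00), Mmp12 (0.87), Cyp3a11 (0.86), Cyp2b10 (0.78), Lyve1 (0.70) and Plin4 (0.69). Whether the run of arrays or the RNA signal of the low-fat arrays bears on these differences cannot be told apart from strain and diet.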

How the results depend on the processing

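The 426 genes that passed on the high-fat diet were 167 with the run of arrays as covariate, 76 with run and without 129S6 low-fat replicate 11, 70 with run and the Gapdh signal, 914 in a fit of only the 2 groups, 705 and 844 with the Gapdh signal or the array SD as covariate, 762 without 129S6 low-fat replicate 11, and 249 to 319 without 1 of the 8 arrays; the cause was not tested. The low-fat count of 1142 was 500 in a fit of only the 2 groups and 560 to 1933 without 1 array, the highest without 129S6 low-fat replicate 11. The high-fat minus low-fat count of 453 was 1022 with the Gapdh signal, 822 with the array SD, 298 after quantile normalization and 263 to 849 without 1 array. The muscle count of 2394 ranged from 1180 to 2685 without 1 array, and the fat count of 33 was 8 in a fit of only the 2 groups and 21 to 871 without 1 array, the highest without B6 replicate 7. Cdh5, Hmgcs1 and Nr0b2 changed sign with the run (-0.126, -0.0285 and 0.0215). Of the 119 genes named that passed, 44 passed with the run, 80 without each of the 8 arrays in turn and 111 under all 8 other settings planned that could give them a value. Among those that lost their call without some array, Gldc kept it in 2 of the 8 fits, Acly and Nr0b2 in 3, and Pparg and Pdk4 in 4. Run could not be fitted for the low-fat difference or for high-fat minus low-fat, since the B6 low-fat arrays lie in a run alone. No paired analysis was possible because the high-fat groups, with replicates 13 to 16 and 7 to 10, share no replicate number. The number of arrays and, for dim genes, the lack of a detection call limit the precision.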
